A study of Mus musculus with 12 samples.

Results

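Interferon-stimulated effector genes are the genes that cells switch on when type I interferon binds its receptor, and whose products act against viruses. The set held 38 genes chosen by name: the transducer Stat2, oligoadenylate synthetases, IFIT proteins, RNA sensors, the ISG15 system, GTPases, nucleic-acid enzymes, ADP-ribosyltransferases, the chemokine Cxcl10 and others. The Aroma table, the set of intensities summarised with the Aroma software, held a row of its own for 33 of the 38, among 18430 genes. The second table, made from the same 6 arrays with Expression Console, held 28. Of these, 25 genes were in both tables, 8 were in the Aroma table alone and 3 (Mx1, Zbp1 and Trim30a) were in the Expression Console table alone. Ifit3 had only rows shared with another gene, and Isg15 was not analysed here. Where a gene had several rows, the one with the highest mean over the arrays was kept.

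Brainstem microglia (BSM) were compared with bone marrow monocytes (BMDM), on 3 Mouse Exon arrays each. Both came from C57BL/6 mice aged 6 weeks that had received no treatment. BSM were sorted as CD11b+ CD45low CD115low Ly6G- cells and BMDM as CD11b+ CD45high CD115+ Ly6G- cells. Each array held amplified RNA from a separate pool of mice. By the labels the replicate 1 pools were female and the replicate 2 and 3 pools male. The study's list of sorted samples holds female and male pools, although its text describes male mice. The question was which transcripts tell the resident microglia of the brain from monocytes of the bone marrow. Microglia markers (9 of 9 measured) were higher in BSM and monocyte markers (8 of 8 measured) were lower in BSM, as the labels say. The array medians ran from 48.8 to 52.1 intensity units in BSM and from 42.8 to 45.2 in BMDM, and the median log2 difference of all rows was 0.18. Neither table carries a detection call, so a low value includes background.

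Type I interferons bind a receptor made of IFNAR1 and IFNAR2, and the attached kinases JAK1 and TYK2 pass the signal on to STAT2. STAT2 and IRF9 are parts of the factor ISGF3, which binds the interferon-stimulated response element (ISRE) in promoters. Many effector genes also carry a low, tonic level of expression in cells that meet no virus, and macrophages of many tissues are known for it. Microglia respond to interferon in infection, injury and ageing.

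Most effector genes were lower in BSM. Of the 33 genes measured in the Aroma table, 31 passed the test as lower (limma, Benjamini-Hochberg adjusted p under 0.05 over all 21837 rows), 0 passed as higher and 2, Ddx58 and Herc6, did not pass. Of all rows, 21.6% were called lower in BSM and 28.0% higher. In the same 31 genes every BSM array lay below every BMDM array, against 24.4% of all rows. The median log2 difference of the 33 genes was -1.45, and 19 of them were more than 2-fold lower in BSM, 8 more than 6-fold. Some BSM means lay below the median row mean of 5.63, so with no detection call the sizes of those folds are uncertain. These were Oas2 (5.31), Oas3 (4.97), Oasl1 (5.17), Ifit1 (5.37), Ifit2 (5.21), Gbp2 (5.35), Rsad2 (4.70), Cmpk2 (5.23) and Ifi44 (4.04). Ifi44 lay below it in BMDM too (4.81). In bulk samples fewer cells that make a transcript and less transcript per cell cannot be told apart. One row needs a caution from the start: the row annotated Ifi27 may belong to another gene, as set out with its values, and without it 30 of 32 genes were lower, with a median of -1.39.

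**Figure D1:**
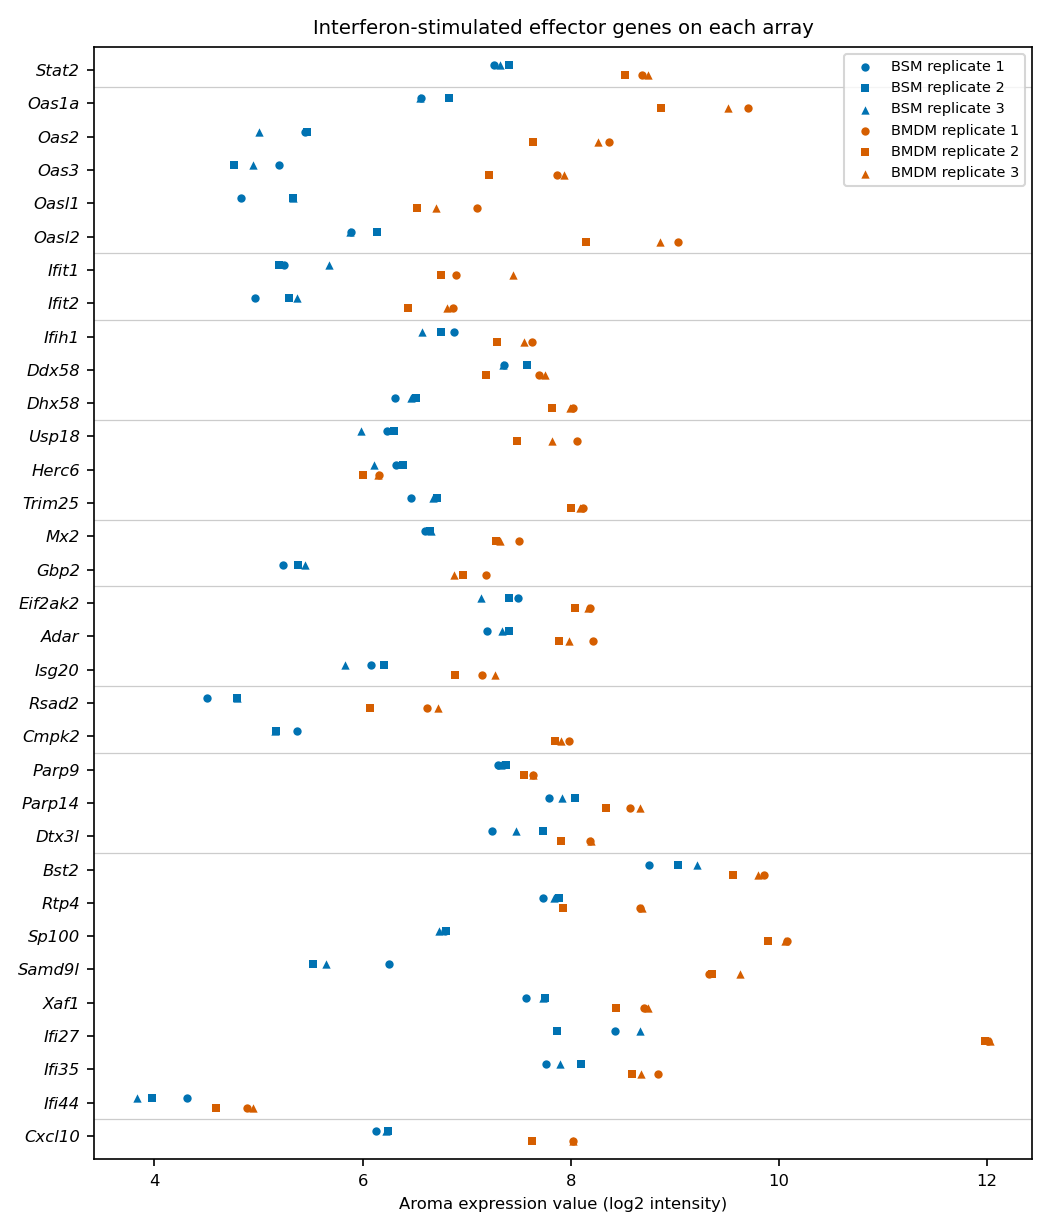
Aroma expression value (log2 intensity, x axis) of the 33 effector genes on each of the 3 BSM and 3 BMDM arrays, with 1 symbol per array and genes grouped by role. The BSM and BMDM points are apart in 31 genes and overlap in Ddx58 and Herc6.

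The signal transducer Stat2, which carries the interferon signal to the nucleus, read 7.27, 7.41 and 7.31 on the BSM arrays and 8.69, 8.53 and 8.74 on the BMDM arrays (log2 intensity, replicates 1 to 3 throughout). It was lower in BSM by a log2 difference of -1.32 (SE 0.10, adjusted p = 1.6e-05). The gene that is both a part of the signal and one of its targets was therefore on the same side as the effectors.

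The oligoadenylate synthetases sense double-stranded RNA and make a messenger that switches on RNase L, and all 5 were lower in BSM (median log2 difference -2.71). Oas1a read 6.56, 6.83 and 6.55 in BSM and 9.70, 8.87 and 9.51 in BMDM, 6.56-fold lower in BSM (log2 difference -2.71, SE 0.21, adjusted p = 1.4e-05). Oas2 read 5.44, 5.47 and 5.01 in BSM and 8.36, 7.63 and 8.27 in BMDM, 6.88-fold lower (-2.78, SE 0.21, adjusted p = 1.3e-05). In both genes the lowest BMDM array, replicate 2, still stood about 2 log2 units above the highest BSM array. Oas3, the largest of the enzymes, read 5.20, 4.76 and 4.95 in BSM and 7.87, 7.21 and 7.93 in BMDM (-2.70, SE 0.20, adjusted p = 1.2e-05). The OAS-like genes, one of which lacks enzyme activity in mouse and the other of which keeps it, differed in the size of the gap. Oasl2 read 5.89, 6.14 and 5.87 in BSM and 9.03, 8.14 and 8.85 in BMDM (-2.71, SE 0.22, adjusted p = 1.8e-05). Oasl1, known in mouse as a repressor of Irf7 translation, read 4.83, 5.33 and 5.33 in BSM and 7.10, 6.52 and 6.70 in BMDM (-1.61, SE 0.19, adjusted p = 0.00018). The mouse has several Oas1 copies, and a further row shared by Oas1a and Oas1g was lower too (-1.90, SE 0.19, adjusted p = 6.8e-05), so signal from one copy on probes of another was not separated.

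IFIT proteins bind viral RNA ends and block its translation, and both members with a row of their own were lower in BSM. Ifit1 read 5.25, 5.20 and 5.68 in BSM and 6.89, 6.75 and 7.45 in BMDM, 3.16-fold lower in BSM (-1.66, SE 0.20, adjusted p = 0.00023). Ifit2 read 4.96, 5.29 and 5.37 in BSM and 6.87, 6.44 and 6.81 in BMDM, 2.82-fold lower (-1.50, SE 0.16, adjusted p = 8.7e-05). The 2 rows that Ifit3 shared with a neighbouring copy also lay lower in BSM (-1.61, SE 0.13, adjusted p = 1.9e-05, and -1.83, SE 0.17, adjusted p = 3.7e-05), and they were left out of the counts because they name no single gene.

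The promoters of some of these genes are shown because they hold the letters of the element that ISGF3 binds. RefSeq (GRCm38.p6) gave a promoter for 28 of the 38 genes, and the 250 bases before each start site were searched on both strands for the core of the ISRE, TTTCNNTTTC or, on the other strand, GAAANNGAAA. It was present in 11 of the 28 (39.3%) and in 3.46% of 27025 genes. A shorter form, without the last C, was present in 17 of the 28 and in 10.8% of all genes. Matches are described as letters only and are not evidence of binding. The promoter stretches of the 8 genes with a match and an Aroma value follow, on the strand of the gene, with the ISRE core in capitals. In Oas1a and Bst2 a pair of cores overlap and form 1 run.
Stat2: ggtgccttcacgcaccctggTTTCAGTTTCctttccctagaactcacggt
Oas1a: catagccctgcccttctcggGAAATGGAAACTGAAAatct
Oas3: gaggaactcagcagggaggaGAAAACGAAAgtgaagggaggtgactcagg
Ifit1: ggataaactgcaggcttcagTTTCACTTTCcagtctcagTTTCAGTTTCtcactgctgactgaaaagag
Gbp2: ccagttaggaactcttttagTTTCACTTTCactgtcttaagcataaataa
Rsad2: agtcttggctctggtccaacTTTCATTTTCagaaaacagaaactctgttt
Bst2: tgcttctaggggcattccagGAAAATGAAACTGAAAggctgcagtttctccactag
Cxcl10: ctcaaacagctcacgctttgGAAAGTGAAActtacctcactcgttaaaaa

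Ifit1 carried a pair of separate cores, 104 and 85 bases upstream of its start site, within chr19:34640765-34640833 on the plus strand. The cores of Oas1a began 20 and 14 bases upstream, within chr5:120907526-120907565 on the minus strand, and that of Oas3 began 75 bases upstream, within chr5:120777705-120777754, also minus. The other stretches were chr10:128270256-128270305 (Stat2, plus), chr3:142620584-142620633 (Gbp2, plus), chr12:26456543-26456592 (Rsad2, minus), chr8:71537567-71537622 (Bst2, minus) and chr5:92349073-92349122 (Cxcl10, minus). The 8 genes had a median log2 difference of -1.68, and the 17 others with a promoter and an Aroma value had -0.94. With the shorter form the medians were -1.66 in 14 genes and -0.78 in 11. A different element, the gamma-activated site (TTCNNNGAA), was searched in the same way. It was present in 5 of the 28 promoters (17.9%) and in 8.13% of all genes. Its medians went the other way, at -1.06 in the 5 genes with it and -1.53 in 20 without. These are descriptions without a test, and Bst2, with an overlapping pair of cores, had one of the smaller differences, as given with the other effectors.

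The RIG-I-like RNA sensors, which detect viral RNA in the cytoplasm, split. Dhx58, the regulator LGP2, read 6.31, 6.51 and 6.46 in BSM and 8.02, 7.82 and 7.99 in BMDM, 2.86-fold lower in BSM (-1.52, SE 0.11, adjusted p = 8.5e-06). Ifih1, the sensor MDA5, was 1.69-fold lower (-0.76, SE 0.13, adjusted p = 0.0017). Ddx58, the sensor RIG-I itself, read 7.36, 7.58 and 7.35 in BSM and 7.69, 7.19 and 7.75 in BMDM. Its groups overlapped, with BMDM replicate 2 below all 3 BSM arrays, and its log2 difference of -0.11 (95% interval -0.49 to 0.26, adjusted p = 0.57) did not pass and turned to 0.07 after quantile normalization again.

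In the ISG15 system, in which a ubiquitin-like protein is joined to other proteins, 2 of the 3 measured genes were lower. Usp18, which removes ISG15 and also restrains the interferon receptor, read 6.23, 6.30 and 5.99 in BSM and 8.06, 7.49 and 7.82 in BMDM (-1.61, SE 0.16, adjusted p = 6.7e-05). Trim25, a ubiquitin and ISG15 ligase that activates RIG-I, read 6.47, 6.71 and 6.68 in BSM and 8.11, 8.005 and 8.09 in BMDM (-1.45, SE 0.11, adjusted p = 1.1e-05). Herc6, the main ISG15 ligase of the mouse, was measured on a row under its older symbol Herc5. It read 6.32, 6.39 and 6.11 in BSM and 6.16, 6.00 and 6.15 in BMDM, with BSM replicate 3 inside the BMDM range. Its log2 difference of 0.17 (95% interval -0.09 to 0.43, adjusted p = 0.24) did not pass and was -0.02 after median centring.

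Among the GTPases, Gbp2, which coats vacuoles of intracellular microbes, read 5.24, 5.37 and 5.44 in BSM and 7.19, 6.97 and 6.88 in BMDM, 3.16-fold lower (-1.66, SE 0.12, adjusted p = 8.6e-06). Mx2, a dynamin-like GTPase, was 1.66-fold lower (-0.73, SE 0.10, adjusted p = 0.00048). Mx1, the mouse GTPase best known for restricting influenza, was measured only in the Expression Console table, where it read 3.98, 5.17 and 4.86 in BSM and 8.15, 7.91 and 7.84 in BMDM (-3.30, SE 0.32, adjusted p = 0.00082 over 23332 rows). BSM replicate 1 stood lowest there and no array overlapped. The Mx1 values in BSM lay below the BSM array medians of that table (5.40 to 5.45), so the size of its difference is uncertain. C57BL/6 mice are known to carry a defective Mx1 gene, and an array value says nothing of the protein.

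Rsad2 and Cmpk2 are neighbouring genes that are induced together, and both were lower in BSM. Rsad2 encodes viperin, which makes a chain-terminating nucleotide, and read 4.51, 4.80 and 4.79 in BSM and 6.62, 6.07 and 6.72 in BMDM (-1.77, SE 0.18, adjusted p = 7.5e-05). Cmpk2, a nucleotide kinase of mitochondria, read 5.37, 5.16 and 5.16 in BSM and 7.98, 7.84 and 7.91 in BMDM, 6.40-fold lower (-2.68, SE 0.11, adjusted p = 2.4e-07). The Cmpk2 arrays lay close together within each cell type, whereas Rsad2 had BMDM replicate 2 well below the other BMDM arrays.

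The nucleic-acid enzymes differed less. Isg20, an exonuclease, read 6.08, 6.20 and 5.83 in BSM and 7.14, 6.89 and 7.27 in BMDM, 2.09-fold lower in BSM (-1.06, SE 0.14, adjusted p = 0.00037). Eif2ak2, the kinase PKR that halts translation when it meets double-stranded RNA, was 1.72-fold lower (-0.79, SE 0.12, adjusted p = 0.00085), and the editing enzyme gene Adar was 1.64-fold lower (-0.71, SE 0.12, adjusted p = 0.0015). Zbp1, a sensor of left-handed nucleic acid that triggers cell death, was measured only in the Expression Console table. It read 5.65, 5.55 and 5.51 in BSM and 9.46, 9.04 and 9.49 in BMDM, 13.5-fold lower (-3.76, SE 0.15, adjusted p = 2.8e-05), the largest gap of the 28 genes in that table. Its BSM values lay close to the BSM array medians there (5.40 to 5.45), so the size of this fold is uncertain.

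Parp9, Parp14 and Dtx3l encode ADP-ribosyltransferases and a ubiquitin ligase that binds PARP9, and they had the smallest differences among the genes that passed, together with Rtp4. Parp14 and Dtx3l were 1.52-fold and 1.53-fold lower in BSM (adjusted p = 0.004 and 0.01), and Parp9 1.21-fold lower (-0.28, SE 0.09, adjusted p = 0.037). Rtp4, a transmembrane protein that binds viral RNA complexes, read 7.73, 7.89 and 7.84 in BSM and 8.67, 7.93 and 8.68 in BMDM (-0.61, SE 0.20, adjusted p = 0.035). BMDM replicate 2 lay just above the highest BSM array, and without it the Rtp4 difference was -0.85 (adjusted p = 0.00097). None of these 4 passed after a further quantile normalization (adjusted p = 0.45 for Parp9, 0.05 for Parp14, 0.063 for Dtx3l and 0.22 for Rtp4). Parp9 was also lost when any 1 array was left out, and Rtp4 when any array other than BMDM replicate 2 was.

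The remaining effectors held the largest gaps. Samd9l, which restrains viral translation and cell growth, read 6.26, 5.52 and 5.65 in BSM and 9.33, 9.36 and 9.63 in BMDM, 12.4-fold lower in BSM (-3.63, SE 0.19, adjusted p = 1.5e-06). Sp100, a component of PML nuclear bodies, read 6.79, 6.80 and 6.73 in BSM and 10.08, 9.90 and 10.06 in BMDM, 9.44-fold lower (-3.24, SE 0.10, adjusted p = 6.1e-08). Mouse Sp100 has many repeated copies, and its Expression Console row was shared with one (-3.45, SE 0.10, adjusted p = 1.1e-05), so the value may hold more than 1 copy. Xaf1, which promotes apoptosis, read 7.57, 7.75 and 7.74 in BSM and 8.71, 8.43 and 8.74 in BMDM (-0.94, SE 0.12, adjusted p = 0.00029). Ifi35, Ifi44 and Bst2 (tetherin, which holds budding virus at the cell surface) were 1.72-fold, 1.71-fold and 1.67-fold lower, with adjusted p of 0.0011, 0.0036 and 0.0032. Trim30a, a brake on NF-kappaB signalling in mouse, was 1.65-fold lower in the Expression Console table (9.41, 9.59 and 9.42 in BSM against 10.39, 10.01 and 10.20 in BMDM, adjusted p = 0.0084).

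The row annotated Ifi27 in the Aroma table read 8.43, 7.87 and 8.67 in BSM and between 11.98 and 12.02 on the 3 BMDM arrays (-3.68, SE 0.19, adjusted p = 1.1e-06). RefSeq lists that symbol as an older name of Ifi27l2a too. The Expression Console row of Ifi27l2a read 8.06, 7.77 and 8.53 in BSM and 12.08, 12.04 and 12.19 in BMDM, close to these values on every array. The Aroma row annotated D12Ertd647e, an older name of Ifi27 itself, went the other way, at 8.73, 8.64 and 8.80 in BSM and 7.42, 7.11 and 7.55 in BMDM (1.36, SE 0.13, adjusted p = 5.3e-05). The Expression Console row of Ifi27 was likewise higher in BSM, at 7.47, 7.53 and 7.77 against 6.57, 6.45 and 6.99 in BMDM (0.92, SE 0.17, adjusted p = 0.011). The direction of Ifi27 therefore depends on which row is its own. By values alone, the Aroma row annotated Ifi27 matched Ifi27l2a. The D12Ertd647e row had the direction of the Expression Console row of Ifi27. Probe sequences were not compared. With the D12Ertd647e row in its place, 30 of the 33 genes were lower in BSM and 1 was higher.

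Cxcl10 encodes a chemokine that draws T cells and NK cells through the receptor CXCR3. It read 6.13, 6.24 and 6.23 in BSM and 8.02, 7.63 and 8.02 in BMDM, 3.23-fold lower in BSM (-1.69, SE 0.13, adjusted p = 1.4e-05). In the Expression Console table it was 5.05-fold lower (-2.34, SE 0.26, adjusted p = 0.0014).

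The Expression Console table is a second summary of the same arrays and no separate sample. Of its 28 effector genes, 25 were lower in BSM and 1, Ifi27, was higher, while Ddx58 (-0.36, adjusted p = 0.21) and Rtp4 (-0.75, adjusted p = 0.062) did not pass. Of all its rows, 20.5% were called lower and 8.38% higher. Its median log2 difference was -1.67 over the 28 genes and -0.05 over all rows. Over the 25 genes in both tables, 22 were lower in the Expression Console table and 24 in the Aroma table.

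**Figure D2:**
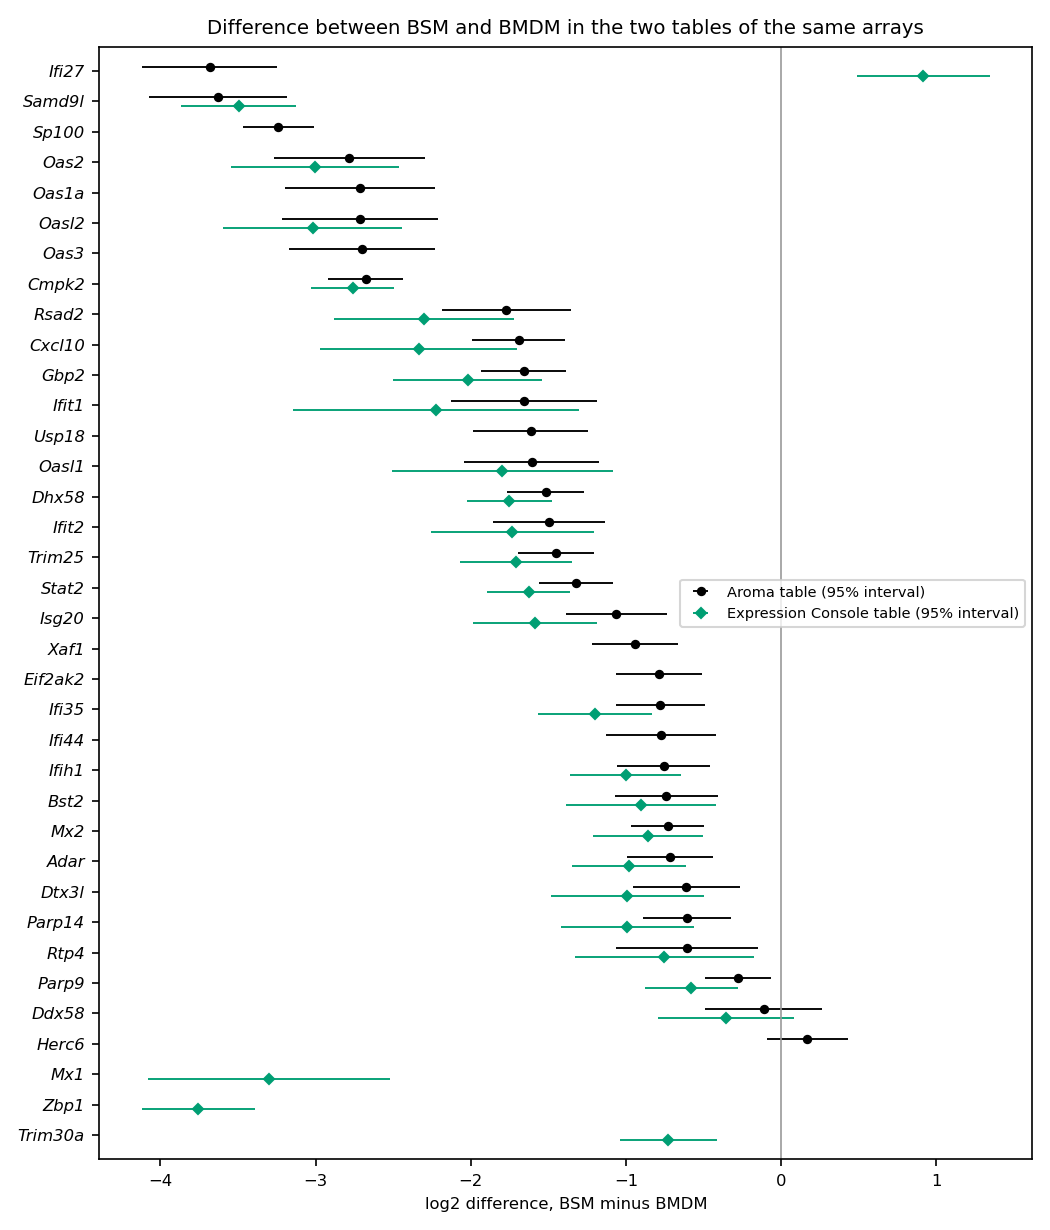
Log2 difference (BSM minus BMDM, x axis) of each effector gene with its 95% interval, in the Aroma table (circles) and the Expression Console table (diamonds), ordered by the Aroma value with the 3 genes of the Expression Console table alone at the bottom. Of the 25 genes in both tables, all but Ifi27 lie on the same side of 0 in both, and the intervals of Ddx58 and Herc6 include 0.

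The effector genes varied together across the BMDM arrays. BMDM replicate 2 had the lowest of the 3 BMDM values in 31 of the 33 genes, against 36.2% of all rows and 16.9% of the rows called lower in BSM. The median deviation of the 33 genes from the BMDM mean was -0.19 in replicate 2, 0.12 in replicate 1 and 0.09 in replicate 3, while over all rows no BMDM array was further from 0 than 0.012. The same array was lowest in 26 of the 28 genes of the Expression Console table and in 34 of 42 further interferon-induced genes of the Aroma table. The widest BMDM ranges belonged to Oasl2 (0.89), Oas1a (0.83), Rtp4 (0.75), Oas2 (0.73) and Oas3 (0.72). In BSM, replicate 1 was lowest in 17 of the 33 genes, beside 51.1% of the rows called lower in BSM. It was also lowest in 21 of the 28 genes of the Expression Console table and in 29 of the 42 further genes. The BSM median deviations lay between -0.07 and 0.08. Shares over all Expression Console rows were not computed, so the counts from that table have no base rate. BSM replicate 1 had the lowest array median there (5.40). Without BMDM replicate 2, 30 of the 33 genes were still lower in BSM and the median difference was -1.48.

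**Figure D3:**
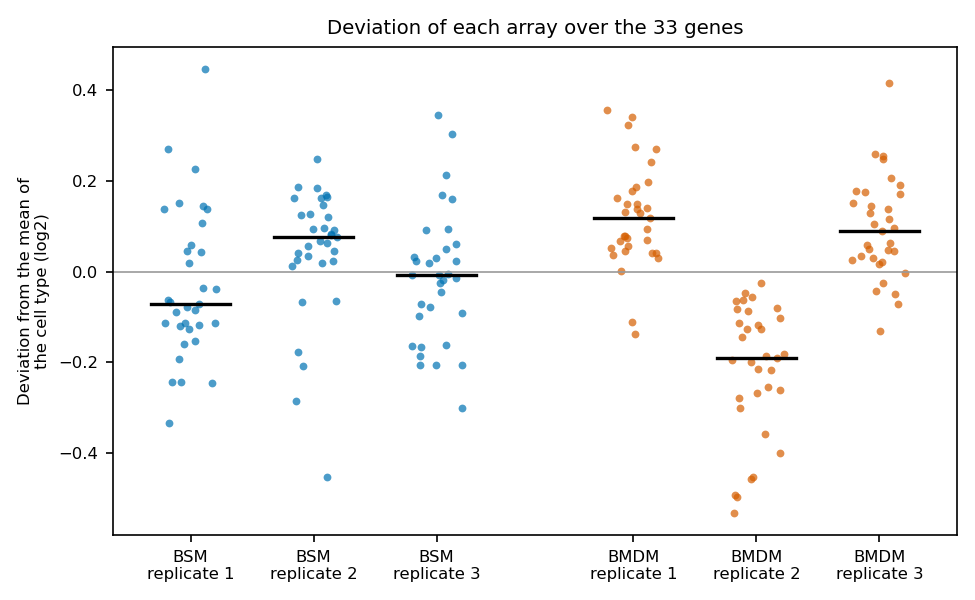
Deviation of each of the 33 effector genes from the mean of its own cell type (log2, y axis) on the 3 BSM and 3 BMDM arrays, with 1 point per gene and a bar at the median. All points of BMDM replicate 2 lie below 0, with a median of -0.19.

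Marker lists of other cells gave these values beside that pattern. Of 6 non-classical monocyte markers, 5 were lower in BSM and 1 was higher, and the list summed to 260 to 289 intensity units in BSM and 1885 to 2278 in BMDM. Ace and Treml4 of that list read lowest in BMDM replicate 2 among the BMDM arrays (7.17 and 6.80), as most effector genes did. Spn, Cd36 and Itgax read highest there (10.60, 5.79 and 5.68), and Nr4a1 read lowest in BMDM replicate 3 (8.27). Of the 5 measured B cell markers (of 8 listed), 4 were lower in BSM, led by Cd79a (-2.46) and Vpreb3 (-2.09), and 1, Cd79b, was higher (0.48), which did not pass after median centring (0.29, adjusted p = 0.15). The B cell sum, 549 to 626 in BSM and 527 to 739 in BMDM, is mostly Cd79b, and all 5 markers read lowest in BMDM replicate 2 among the BMDM arrays. The 8 plasmacytoid dendritic cell markers split, with 3 lower in BSM (Spib at -1.52 among them), 3 higher (Cox6a2, Tcf4 and Pacsin1) and 2 that did not pass, and summed to 921 to 972 in BSM and 538 to 585 in BMDM. Of 7 measured T and NK markers (of 8), 2 were lower and 5 did not pass. Their sum of 175 to 221 in BSM and 428 to 807 in BMDM rests on Nkg7, which read 5.27, 5.10 and 4.92 in BSM and 9.05, 9.37 and 8.13 in BMDM. The 9 measured neutrophil and granule markers (of 10) were all lower in BSM, and summed to 221 to 323 in BSM and 13974 to 16841 in BMDM. Of 6 measured erythroid markers (of 7), 4 were lower and 2, Klf1 and Epor, did not pass. Their sum of 214 to 369 in BSM and 5270 to 8055 in BMDM is almost all Hbb-b1, which read 5.92, 7.89 and 7.20 in BSM and 12.29, 12.60 and 12.91 in BMDM. Of 6 astrocyte markers, 4 were higher in BSM, led by Slc1a3 (3.53), and 0 were lower. They summed to 351 to 357 in BSM and 126 to 130 in BMDM. Of 5 border macrophage markers, 2 (Lyve1 and Mrc1) were higher and 1 was lower, with sums of 313 to 345 in BSM and 255 to 280 in BMDM. The neuron and the endothelial lists each had 1 higher and 1 lower, and the oligodendrocyte list had 2 of each. No marker of these lists is listed at 0, since every value includes background. The part of other cells in the difference of the effector genes was not tested.

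The direction was the same in the female and the male arrays for most genes. In the female pair 32 of the 33 genes read lower in BSM and the median difference was -1.65, and in the male arrays 32 read lower and the median was -1.28. A term for cell type by set passed in 0 of the 33 genes and in 0 of all 21837 rows (limma, lowest adjusted p of the 33 genes 0.6). The female set holds 1 array of each cell type, so the spread came from the male arrays alone, and the absence of calls does not show that the sets are alike. Before adjustment 2 of the 33 genes and 7.1% of all rows were under 0.05. These genes were Oasl1, with a difference of -2.27 in the female pair and -1.28 in the male arrays, and Samd9l, with -3.07 in the female pair and -3.91 in the male arrays. The set of the female arrays was made apart from that of the male arrays, so sex and set cannot be told apart.

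Genes above and around the effectors were called in both directions in the Aroma table. The shares of all rows to set beside each list were 21.6% lower and 28.0% higher in BSM. Among the further interferon-induced genes, given last, more were lower (22) than higher (11). Of 6 measured interferon genes, 1 was lower in BSM, 2 were higher and 3 did not pass. Ifnk, interferon kappa, was 4.71-fold lower (-2.23, SE 0.16, adjusted p = 9.7e-06). Ifnb1 and Ifna2 were 1.55-fold and 1.36-fold higher (adjusted p = 0.048 and 0.033), and neither passed after quantile normalization again (adjusted p = 0.17 and 0.3). The means of Ifnb1 (3.97 in BSM, 3.34 in BMDM) and of Ifna2 (5.45 and 5.01) lay below the median row mean of 5.63. The BSM and BMDM arrays overlapped in Ifnb1. With no detection call both differences are uncertain. The receptor chains and the kinase Jak1 did not pass. Ifnar1 differed by -0.18 (95% interval -0.43 to 0.07, adjusted p = 0.2), Ifnar2 by -0.03 (-0.27 to 0.21, adjusted p = 0.84) and Jak1 by -0.01 (-0.26 to 0.24, adjusted p = 0.93).

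Downstream of the receptor, 3 of 8 measured genes were lower in BSM and 1 was higher. Tyk2, the kinase on IFNAR1, was 1.85-fold lower (-0.89, SE 0.11, adjusted p = 0.00031), Jak2 1.72-fold lower (-0.78, SE 0.10, adjusted p = 0.00028) and Irf9, the DNA-binding part of ISGF3, 1.66-fold lower (-0.73, SE 0.13, adjusted p = 0.0023). Ifngr1, the ligand-binding chain of the interferon gamma receptor, was 1.83-fold higher (0.87, SE 0.09, adjusted p = 9.5e-05). Ifnar2, Jak1 and Ifngr2 passed as higher after a further quantile normalization, and Ifnar1 passed as lower after median centring (-0.37, adjusted p = 0.037).

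Of 15 measured sensors and adaptors that lead to interferon production, 8 were higher in BSM, 4 were lower and 3 did not pass. Tlr3, the endosomal receptor for double-stranded RNA, read 9.43, 9.30 and 9.38 in BSM and 4.70, 4.79 and 4.58 in BMDM, 25.7-fold higher in BSM (4.68, SE 0.10, adjusted p = 1.7e-08). Tlr8 read 4.04, 3.93 and 3.78 in BSM and 8.30, 8.58 and 8.75 in BMDM, 24.7-fold lower (-4.63, SE 0.14, adjusted p = 5.4e-08). These endosomal receptors of RNA thus stood on opposite sides. Irf7, the interferon-inducible factor that drives interferon alpha genes, was 7.04-fold lower in BSM (-2.82, SE 0.14, adjusted p = 7.8e-07), and Ikbke, a kinase that activates it, was 5.64-fold lower (-2.50, SE 0.14, adjusted p = 2e-06). Of 10 feedback inhibitors, 4 were lower and 4 higher. Socs3, which blocks JAK kinases, was 6.23-fold higher in BSM (2.64, SE 0.23, adjusted p = 3.2e-05) and Pias2 1.52-fold higher (0.60, SE 0.10, adjusted p = 0.0015). In the Expression Console table Pias2 did not pass, at 0.22 (adjusted p = 0.18). The phosphatase genes Ptpn6 and Ptpn2 were 1.45-fold and 1.41-fold lower in BSM (adjusted p = 0.0068 and 0.0081), calls that were lost after quantile normalization again.

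A list of 53 further interferon-induced genes, which mixes genes of type I and of interferon gamma responses, had 42 measured. Of these, 22 were lower in BSM, 11 higher and 9 did not pass, beside 21.6% of all rows lower and 28.0% higher, and the median log2 difference was -0.31. Ifi203 and Ifi205, nuclear DNA sensors of the PYHIN family, were 41.2-fold and 34.7-fold lower (adjusted p = 3.4e-08 and 7.5e-08). Slfn1, a Schlafen protein of lymphoid and myeloid cells, was 34.4-fold lower (adjusted p = 3.5e-07) and Ifi47, an immunity-related GTPase, 25.3-fold lower (adjusted p = 4.2e-08). The BSM means of Ifi203 (4.05), Ifi205 (4.56), Ifi47 (3.57), Slfn1 (5.62), Tlr8 (3.92), Ikbke (4.94) and Ifnk (4.17) lay below the median row mean of 5.63. So did the BMDM means of Tlr3 (4.69) and Socs3 (5.22). With no detection call the sizes of the folds of these genes are uncertain. Of the 34 genes of this list with a row of their own in the Expression Console table, 21 were lower and 0 were higher (limma). Of the 11 genes called higher in the Aroma table, 7 had only rows shared with other genes there, which were not counted, and 4 did not pass there.

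**Figure D4:**
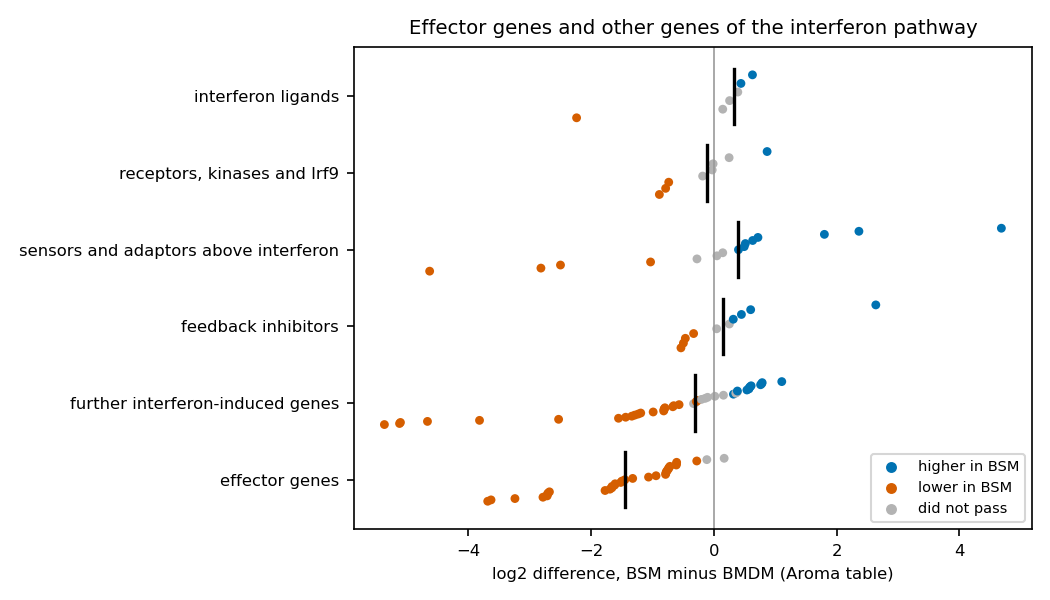
Log2 difference (BSM minus BMDM, x axis, Aroma table) of the 33 effector genes and of 5 other lists of the interferon pathway, with 1 point per gene, coloured by its call at an adjusted p of 0.05, and a bar at the list's median. The effector genes lie almost wholly below 0, with a median of -1.45, and the other lists hold called genes on both sides.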

How the data were processed

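RNA of 3 BSM and 3 BMDM pools was amplified and hybridised to Mouse Exon arrays. The authors deposited each array in a pair of tables. The first holds linear intensity values, which the authors obtained in Aroma (RMA background, quantile normalization, log-additive probe model) (genome build not given in the sources used here). The second holds log2 values that the authors made with Affymetrix Expression Console and RMA on build mm9. Partek values and RNA sequencing of the study were not used here, and no per-sample column was left unused.

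Aroma intensities were converted to log2 with no added constant. Differences, BSM minus BMDM, were tested two-sided with limma 3.58.1 under R 4.3.3 (lmFit, eBayes) over all 21837 rows without covariate or filter, with Benjamini-Hochberg adjustment and a threshold of 0.05. The procedure was first tested on simulated data. With 3 pools against 3, the number of arrays limits the precision. Gene names came from the platform annotation, updated through RefSeq names (GRCm38.p6). Rows with several symbols were named for no single gene, and older symbols were accepted.

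The genes and lists were chosen with earlier results of these data known. Array values are printed for genes that did not pass and for the 20 with the largest differences among those that passed without overlap, and of each other list up to 4 called genes are named. The receptor chains, Jak1, Rtp4, Mx1, Zbp1, Trim30a, Cd36, Itgax, Cd79b, Klf1 and Epor were named beyond that rule after their values were seen. The results were run again with a block for the replicate number, with sex as a covariate, without each array, in the Expression Console table, and with quantile normalization again, median centring, brighter rows only, eBayes with trend and robust settings, the methods' t-test on linear values, an equal-variance test on log2 values and the mean of a gene's rows. The other row of Ifi27 was added after seeing the data.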

Additional observations from a re-analysis of the deposited data

How the results depend on the processing

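Of the 31 effector genes called lower in BSM, 26 kept direction and call under every alternative run, 4 (Parp9, Parp14, Dtx3l and Rtp4) lost the call under at least 1, and Ifi27 reversed. The reversal of Ifi27 was in the Expression Console table and may compare rows of different genes. Between 25 and 31 genes were lower under all alternatives, 25 of 28 measured in the Expression Console table and 27 of 33 after quantile normalization again. Ifi27 was 0.92 in the Expression Console table and 1.36 on its other row, so that 1 effector gene was higher in BSM under each. Ddx58 turned to 0.073 after quantile normalization again and Herc6 to -0.021 after median centring. The median of the effector genes was -1.67 in the Expression Console table, -1.30 after quantile normalization again, -1.64 after median centring, -1.32 with the mean of a gene's rows or the other row of Ifi27, and -1.63 after subtraction of the median of all rows.

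Over all rows, same-numbered pools did not visibly deviate together (correlations of 0.065, 0.0021 and 0.011, beside -0.12 to 0.11 for other pairs). With 3 arrays a cell type these correlations cannot exclude a pairing, and the labels do place both replicate 1 arrays in the female set. With the replicate block 30 effector genes were lower, and Parp9 lost its call.

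Counts in the other lists moved more. Higher interferon genes numbered 2, but 1 with the replicate block or sex as a covariate, 0 to 2 when an array was left out, and 0 in the Expression Console table, after either further normalization, by the methods' t-test and by the equal-variance test. None of the 6 interferon genes was among the brighter rows, so 0 were lower there. Quantile normalization again gave 4 higher receptor and kinase genes and 1 lower feedback inhibitor. Higher sensors and adaptors numbered 5 in the Expression Console table and after median centring. Higher feedback inhibitors numbered 1 in the Expression Console table, 2 after median centring and 2 to 3 when an array was left out. Higher further interferon-induced genes numbered 0 in the Expression Console table, 7 after median centring and 6 by the methods' t-test and the equal-variance test. The causes of these changes were not tested.

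With 3 arrays a cell type and no detection call, small differences are the least certain. Where 1 array of a cell type was left out, the remaining 2 were compared with a spread pooled over both cell types.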
